A study of Mus musculus with 2 samples.

Results

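The cells described here are the few in the library labelled IRF8KO in which Apoe, the transcript of the lipid carrier apolipoprotein E, was low. They were chosen by measured values: at least 1000 unique molecular identifiers (UMIs, tags that count captured transcripts), at least 500 genes, at most 10% mitochondrial UMIs, under 2% of UMIs in 6 neutrophil genes (Camp, Ngp, S100a8, S100a9, Lcn2 and Ltf) and under 3% of UMIs in Apoe. This rule found 100 of 5007 kept cells, or 1.997% (exact binomial 95% interval 1.63 to 2.42). They were set beside the 4522 cells of the same library with Apoe at 5% or more, called Apoe-high here, and beside 3304 WT cells under the same filter. A further 385 cells had Apoe at 3 to under 5%. Both groups are C57BL/6 female mice aged 3 months, with brain microglia freed without enzymes, pooled from 3 mice, sorted by flow cytometry and passed to a droplet platform, with no treatment named. WT is 1 library and IRF8KO is 1 library, so nothing here has a replicate and no test of genotype or of cell group was possible. Group labels follow the sample titles. The genotype field of the sample titled IRF8KO says WT, and no label names the allele, so "the library labelled IRF8KO" is used throughout.

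Microglia are the resident macrophages of the brain. The zinc finger factor Sall1 is known to hold their identity in the adult, P2ry12 is a purinergic receptor typical of resting microglia, and Irf8 is a transcription factor needed for normal microglial development. Apoe is low in resting microglia and high in microglia of the diseased or ageing brain, while Ms4a7 is known as a marker of the macrophages at the borders of the brain.

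Levels are UMIs summed over the cells of a group and scaled to a total of 1000000 UMIs (CPM), with Apoe left out of the total. Brackets hold exact 95% intervals, which cover counting error only, and a log2 ratio is taken between the CPM of 2 groups. The WT library held 18706147 UMIs in 3504 barcodes and that labelled IRF8KO 19998075 in 5303. Median depth was 2982 UMIs over the 100 Apoe-low cells, 2952.5 over Apoe-high cells and 3204.5 over WT cells. Irf8 itself was read at 758 CPM in the Apoe-low cells, 731 in Apoe-high cells and 795 in WT, with log2 ratios of 0.05 (-0.14 to 0.23) and -0.07 (-0.26 to 0.11). UMIs near the 3′ end of a gene cannot show whether a deletion lies elsewhere in it. What free RNA can give was read from the 98 barcodes rich in neutrophil genes, which have a median of 4 Apoe UMIs each and 0.0489% of their UMIs in Apoe. A few of these barcodes hold far more, up to 3072 Apoe UMIs, so shares of barcodes with a UMI are given for them and not summed levels. The libraries shared 5 cell barcodes, 1 of them a member.

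Among the members, Apoe took 0.0189% of UMIs in the lowest cell, 1.89% in the median cell and 2.99% in the highest. The highest members stood at 2.95%, 2.95% and 2.99%, and the next cells outside the rule at 3.00%, 3.00% and 3.02%, so the limit cuts a continuous range. The 100 cells were not of 1 kind. Clustered on genes that are on none of the lists used here and without Apoe, they fell into a set of 42 cells and 58 others. The 42 were picked as the cluster with the highest summed level of Sall1 and are called the Sall1-bearing set. They held 37 of the 38 member UMIs of Sall1. Apoe had a median of 0.378% in the Sall1-bearing set, where 29 of 42 cells were under 1%, and 2.25% in the other 58, where 7 were under 1%. In 16 of the 42 cells the number of Apoe UMIs did not pass 6, the upper quartile of the neutrophil-rich barcodes. The name proposed for these cells, Apoe-low cells that keep microglia genes, did not describe all 100. It described the Sall1-bearing set only in part. Of 54 genes with at least 100 CPM in WT and at least 4-fold lower in Apoe-high, 16 were within 2-fold of WT only in the set. Another 13 were within 2-fold of Apoe-high only, 17 were near neither and 8 with no UMI were not placed. Among the 13 and the 17 are genes with only 1 or 2 UMIs in the set, whose place is not resolved. Cck and Klf4, also named for these cells, read only 0.324 and 6.31 CPM in WT.

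The list of 36 microglia surface and secreted genes took 5.70% of a member's UMIs in the median and ranged from 0.388% to 14.8%. It took between 4.84% and 14.8% in the Sall1-bearing set, with a median of 9.55%, and a median of 3.71% in the other 58. For comparison the median was 4.48% in Apoe-high cells, 10.04% in WT cells and 0.0817% in the neutrophil-rich barcodes. Most of the Sall1-bearing set thus lay above the upper quartile of the Apoe-high cells, 5.85%, and close to WT. Since the set is a cluster of these same cells, its distance from the rest is a description and not a test.

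**Figure D1:**
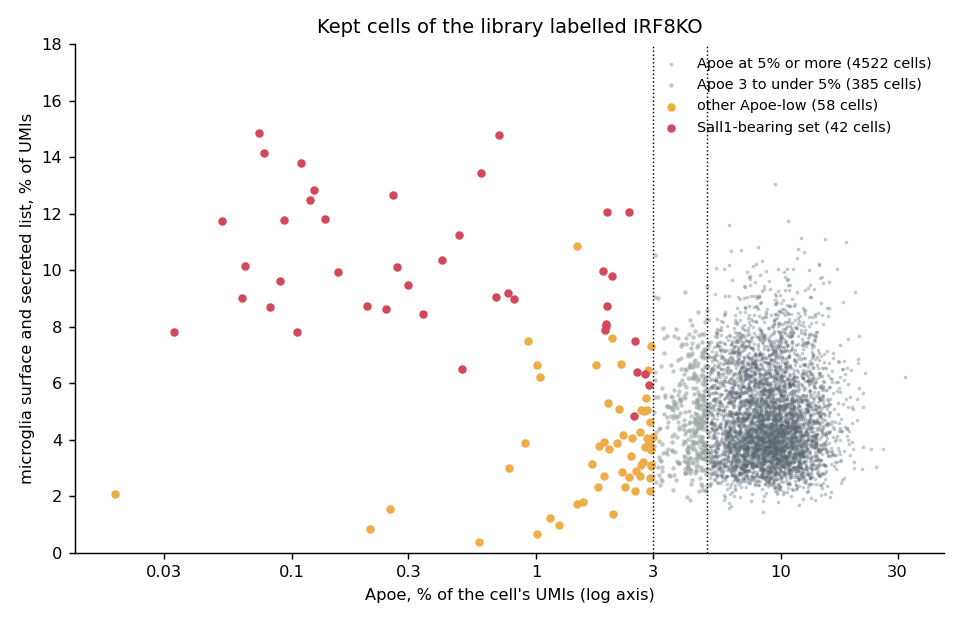
Each point is 1 kept cell of the library labelled IRF8KO; the x axis is the share of UMIs in Apoe (log axis) and the y axis the share in the microglia surface and secreted list, both in percent. Dotted lines mark Apoe at 3% and 5%, and the Sall1-bearing set (median 9.55%) stands above the other Apoe-low cells (median 3.71%) on the y axis.

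The edge of the Sall1-bearing set is not sharp. Over 10 settings for choosing and clustering the cells, its size ran from 34 to 92 cells, and leaving out the 1 member whose barcode also occurs in the WT library moved it from 42 to 59. Under each setting the cluster with the highest Sall1 level was taken. There were 32 cells in it under every setting that kept them, 32 under some settings only and 36 under none. The 32 constant cells, whose median Apoe share was 0.251%, held 34 of the 38 member UMIs of Sall1, 65 of 72 of Cck and none of Ms4a7. They read Sall1 at 304 CPM (211 to 425), P2ry12 at 2667 CPM and Gpr34 at 2327 CPM. The 32 cells of changing membership read Sall1 at 38.0 CPM (10.3 to 97.2), P2ry12 at 1205 CPM and Ms4a7 at 218 CPM, and the remaining 36 had no Sall1 UMI, P2ry12 at 316 CPM and Ms4a7 at 549 CPM. Values for the set of 42 follow. Ratios were recomputed under other settings for only a part of the genes named.

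The Sall1-bearing set was picked as the cluster with the highest Sall1 level, so its Sall1 values are a description and support nothing. Of the transcription factors, Sall1 had the largest ratio to Apoe-high. Its gene is at chr8:89027235-89044162 in build GRCm38, minus strand. It was read at 263 CPM (185 to 362) in the Sall1-bearing set, 0.883 CPM in Apoe-high cells and 511 CPM in WT. In all, 54 Sall1 UMIs were counted in the 5007 kept cells of the library labelled IRF8KO, and the 100 members, with 1.74% of that library's UMIs, held 70.4% of them. Sall1 was found in 21 of the 42 cells, with at most 5 UMIs in 1 cell, in 7 of 4522 Apoe-high cells and in 2516 of 3304 WT cells. Against Apoe-high the log2 ratio was 8.22 (7.29 to 9.22), and against WT -0.96 (-1.47 to -0.50). The latter was -1.52 without the shared barcode, where the set is the larger 59 cells, and -1.81 with Apoe under 4% as the limit. Csmd3, which encodes a large membrane protein with CUB and Sushi domains, went with it: 36 of 37 member UMIs lay in the set, at 255 CPM (179 to 354), against 1.07 in Apoe-high and 186 in WT. Its log2 ratio to Apoe-high was 7.90, and 7.09 with Apoe under 4% as the limit. A UMI of Sall1 or Csmd3 was found in 33 members, 32 of them in the set.

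Other factors of microglia differed less. Of 20 listed factors, Klf4 and Sall1 among them, 14 reached 50 CPM in the Sall1-bearing set or in Apoe-high cells, and 3 were at least 2-fold higher in the set and none at least 2-fold lower. Sall1, by which the set was picked, and Klf4, named for these cells beforehand, are among the 3. The count is therefore not read as a result about the list. Over all 4010 genes at that level, 6.98% were at least 2-fold higher and 5.94% at least 2-fold lower in the set. The median log2 ratio was 0.23 over the 14 factors and 0.12 over all genes. Sall3, a paralogue of Sall1, read 177 CPM in the set, 134 in Apoe-high and 186 in WT, and none of its ratios left 0 out of the interval. Mef2c, a factor active in microglial enhancers, read 1434 CPM, 1171 and 1353 in the same order.

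Surface and secreted genes of microglia were higher in the Sall1-bearing set than in Apoe-high cells nearly throughout. Of 36 listed genes 33 reached 50 CPM, 31 were above 0 on the log2 scale, 14 were at least 2-fold higher and none at least 2-fold lower, with a median of 0.85. P2ry12 and Cck, both named for these cells beforehand, are among the 14. Over all 4010 genes at that level 6.98% were at least 2-fold higher and 5.94% at least 2-fold lower, with a median of 0.12. P2ry12 read 2526 CPM (2271 to 2803) in the set, 672 in Apoe-high and 3703 in WT. Adgrg1, an adhesion receptor also known as Gpr56, read 220 CPM (149 to 312) against 13.3 and 333, and its log2 ratio to Apoe-high was 4.05, or 3.34 with Apoe under 4% as the limit. Slc2a5, a fructose transporter, read 277 CPM against 34.0 and 388. The purinergic receptor family member Gpr34 read 2058 CPM against 854 and 2164, and Sparc, a secreted matrix protein, 3719 CPM against 736 and 3342. All 5 of these genes were nearer to WT than to Apoe-high.

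Against WT, 35 listed surface and secreted genes reached 50 CPM and the median was -0.21, with 4 at least 2-fold higher and 5 at least 2-fold lower; over all 4250 genes 5.18% were higher and 8.64% lower by this measure and the median was -0.03. The genes above WT include Fcrls, an Fc receptor-like gene, at 3747 CPM against 1793, and Olfml3, a secreted glycoprotein, at 3023 CPM against 1206. Cck, on the list but almost absent from WT at 0.324 CPM, is also counted among the 4. Those below include Bin1, a membrane-shaping protein, at 305 CPM against 791. Upk1b had no UMI in the set and 65.0 CPM in WT, at least 3.05-fold lower with 3 counts in its place. Tmem119, often used to tell microglia from other macrophages, differed little between the IRF8KO cells, at 1065 CPM in the set and 935 in Apoe-high, a log2 ratio of 0.19 (-0.05 to 0.42), and was at 1481 CPM in WT.

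**Figure D2:**
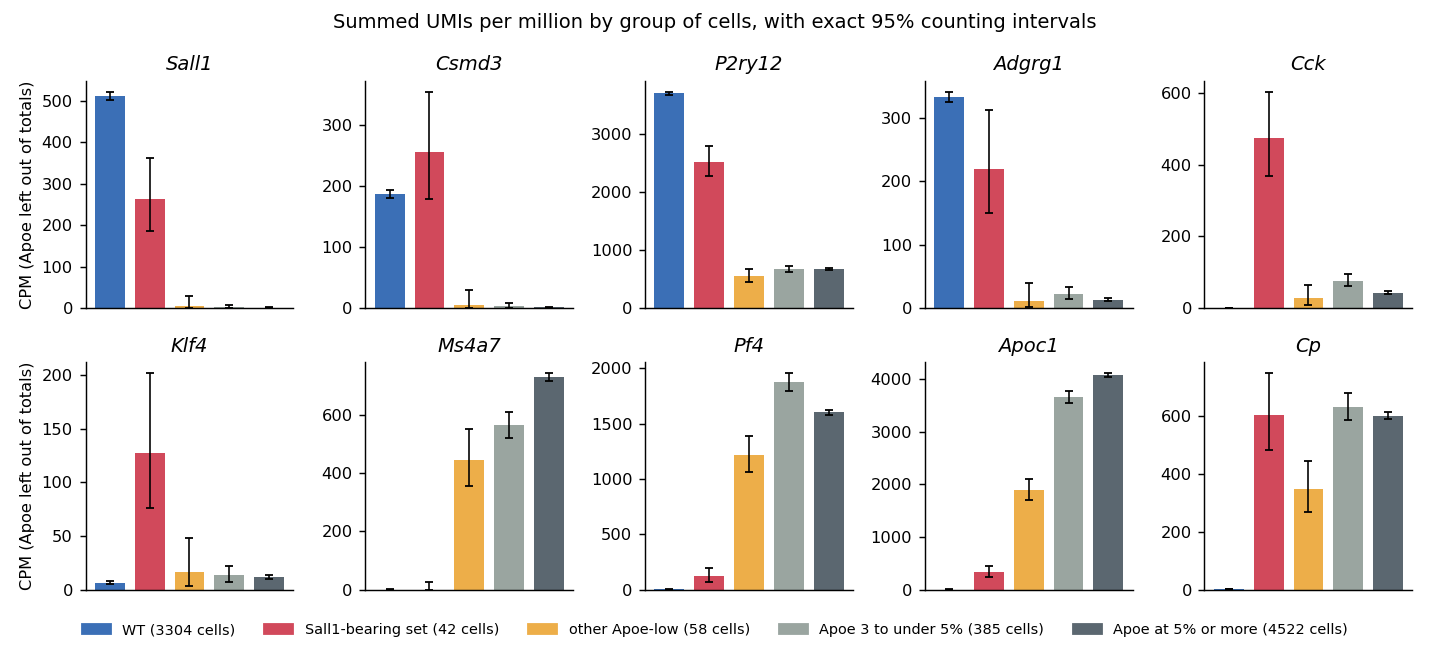
Bars give the levels of 10 genes (CPM, Apoe left out of totals) summed over each group of cells, with exact 95% counting intervals; each panel has its own y axis from 0. In the Sall1-bearing set Sall1, P2ry12 and Adgrg1 stand above Apoe-high cells and below WT, and Csmd3 stands near WT. Ms4a7, Pf4 and Apoc1 stand far below the other IRF8KO cells, and Cck and Klf4 are highest in the set.

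A pair of genes named for these cells, Cck and Klf4, followed neither reference. Cck, which encodes the peptide cholecystokinin, read 475 CPM (368 to 604) in the Sall1-bearing set, 43.1 in Apoe-high, 76.8 in cells with Apoe at 3 to under 5% and 0.324 in WT. Its 67 UMIs in the set came from 20 of 42 cells, while 6 of 3304 WT cells and 349 of 4522 Apoe-high cells had a UMI. Klf4, a Krüppel-like factor, read 128 CPM (75.7 to 202) in the set, 11.9 in Apoe-high and 6.31 in WT, from 18 UMIs in 11 cells. A UMI of Cck or of Klf4 was found in 23 of the 42 cells, and 12 cells had both Sall1 and Cck. There were 5 genes with at least 100 CPM in the set and at least 4-fold above both Apoe-high and WT: Cck, Klf4, Lpl, Tmem44 and Prkce. Tmem44, with 18 UMIs, and Prkce, with 19, had log2 ratios to WT of 2.27 and 2.03, close to the 4-fold limit. Their ratios for the set were not recomputed under other settings. Lpl, which encodes lipoprotein lipase, read 142 CPM (86.7 to 219) against 24.2 and 20.7, and stood in 12 cells. Its place among the 5 depends on the edge of the set: its log2 ratio to Apoe-high was 2.55, but 1.99 without the shared barcode and 1.74 with Apoe under 4% as the limit, where that to WT was 1.96. With that limit the ratios to Apoe-high moved from 3.46 to 2.87 for Cck and from 3.42 to 2.76 for Klf4.

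Genes of border macrophages were lower in the Sall1-bearing set than in Apoe-high cells, though their share of UMIs was not as low as in WT. Of 19 listed genes 10 reached 50 CPM against Apoe-high; 8 were at least 2-fold lower, none at least 2-fold higher, and the median log2 ratio was -2.33. Against WT 4 of 7 were at least 2-fold higher and none at least 2-fold lower, with a median of 1.16. A gene low in 1 group reached 50 CPM only through the other. Ms4a7 did so through Apoe-high, and Pf4 and Mrc1 through the set when read against WT. Ms4a7 and Clec12a, low in both the set and WT, dropped out of that comparison. These counts and medians are therefore a description. Over all genes at that level 5.94% were at least 2-fold lower than in Apoe-high, and the median was 0.12. Against WT 5.18% of all genes were at least 2-fold higher, and the median was -0.03. Over single cells the list took a median of 0.301% of UMIs in the set, 0.600% in Apoe-high and 0.170% in WT. Ms4a7 had no UMI in the 42 cells, an exact upper bound of 8.41% for the share of such cells with a UMI. It read 731 CPM in Apoe-high and was at least 34.3-fold lower in the set with 3 counts in its place. Without thinning it was found in 2703 of 4522 Apoe-high cells and in none of the WT cells. Pf4, a platelet-type chemokine, read 121 CPM (70.3 to 193) in the set, 1602 in Apoe-high and 0.486 in WT. With 1000 UMIs per cell a Pf4 UMI was found in 9.52% of the set (exact interval 2.66 to 22.6), 58.4% of Apoe-high cells and 5.10% of the neutrophil-rich barcodes (1.68 to 11.5), so its share in the set was not told apart from that of free RNA at this depth. Mrc1, the mannose receptor, was lower by less, at 277 CPM against 558, and was at 11.4 in WT. Without the shared barcode, where the set grew to 59 cells, the log2 ratios to Apoe-high were -2.79 for Ms4a7 and -1.62 for Pf4, against a bound of -5.10 and a value of -3.73 for the 42 cells.

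Low Apoe came with low levels of its neighbours on chromosome 7. Apoe (19696109 to 19699188), Apoc1 (19689481 to 19692660) and Apoc4 (19678083 to 19681479) lie side by side on the - strand, and all encode apolipoproteins. Apoc1 read 334 CPM (245 to 444) in the Sall1-bearing set, 1895 in the other 58 Apoe-low cells, 4073 in Apoe-high and 0.701 in WT. With 1000 UMIs per cell it was found in 21.4% of the set (10.3 to 36.8), 82.0% of Apoe-high cells and 9.18% of the neutrophil-rich barcodes (4.29 to 16.7). Apoc4 read 35.5 CPM in the set, 147 in the other 58 cells and 484 in Apoe-high. The rule chose cells on Apoe, so values of genes that follow Apoe are a description. The log2 ratio of Apoc1 between the set and Apoe-high was -3.61 and ran from -4.09 to -1.19 over the settings, the last with Apoe under 4% as the limit. That of Sall1 ran from 7.37 to 9.67. Since the set was picked for its Sall1 level under every setting, this range does not show how stable the Sall1 ratio is.

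Other gene groups were read against Apoe-high at 50 CPM or more. Over all 4010 genes at that level 6.98% were at least 2-fold higher and 5.94% at least 2-fold lower in the set, with a median of 0.12. Of 18 interferon-stimulated genes 10 were at least 2-fold lower in the Sall1-bearing set and none higher, with a median of -1.33; Ifi204, a DNA sensor of the Ifi200 family, read 28.4 CPM against 181. Of 6 inflammatory genes 5 were at least 2-fold lower, with a median of -2.34; Bcl2a1b, a survival gene with near-identical copies that make its count uncertain, read 14.2 CPM against 104. Of 20 genes of disease-associated microglia other than Apoe, 5 were at least 2-fold lower and 3 higher by this measure. The lower ones include Cst7, a cysteine protease inhibitor, with 1 UMI or 7.10 CPM against 138, and Fth1, ferritin heavy chain, at 2328 CPM against 7191; the higher ones include Lpl and the protease Ctsl, at 1760 CPM against 734. The log2 ratio of Cst7 was -4.28, but -1.84 without the shared barcode and -2.58 with Apoe under 4% as the limit, and that of Lpl is given above under the same settings. Of 14 genes of lipid handling 2 were higher, Lpl and the lipoprotein receptor Scarb1, and none lower. Of 13 genes of the TGF-beta pathway, on which microglia depend, 1 was higher, the integrin gene Itgav, and none lower, with a median of 0.38. Of 11 complement and Fc receptor genes none was 2-fold higher or lower, and of 24 lysosome genes 1, Ctsl, was higher. With so few genes called, the lipid handling, TGF-beta, complement and lysosome counts are not read as results about those lists.

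Several genes read closer to Apoe-high cells than to WT in the Sall1-bearing set, at the same level or apart from both. Cp, which encodes the ferroxidase ceruloplasmin, read 603 CPM (482 to 746) in the set and 599 in Apoe-high, but 1.08 in WT. Acaca, an enzyme of fatty acid synthesis, read 298 CPM against 226 and 10.7. Trim55, a ring finger gene known from muscle, was more than 2-fold above Apoe-high, at 199 CPM against 88.7, and at 0.0540 in WT. Ctsh, a lysosomal protease, read 28.4 CPM in the set, 42.7 in Apoe-high and 898 in WT. Ly86, the partner of the surface receptor CD180, was within 2-fold of neither, at 106 CPM against 24.7 and 1952, a log2 ratio to Apoe-high of 2.11, or 1.49 with Apoe under 4% as the limit. C1qa and C1qb, subunits of complement C1q, read 4883 and 2519 CPM in the set, 5757 and 3000 in Apoe-high and 9845 and 7782 in WT. Ribosomal protein genes took a median of 11.6% of UMIs in the set, 13.6% in Apoe-high and 6.59% in WT. The share of mitochondrial genes was nearer to WT, at 2.50% against 3.73% in Apoe-high and 2.09% in WT.

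Among the genes that separate the references, some read near WT in the set and others near Apoe-high. There were 54 genes with at least 100 CPM in WT and at least 4-fold lower in Apoe-high cells. A gene was not placed where the set had no UMI of it, or where it came within 2-fold of a group only through the 3 counts that stand in for 0. In the Sall1-bearing set 16 of the 54 were within 2-fold of WT only, 13 within 2-fold of Apoe-high only and 17 of neither, and 8 with no UMI were not placed. The 16 include Sall1, Csmd3, P2ry12, Adgrg1, Slc2a5, Sparc, Serpine2 and Ccl9, and the 13 include Ctsh, Bin1 and Aif1. Genes with 1 or 2 UMIs in the set were placed too, though they lie under the 21.3 CPM that could be told from 0. Ets1, with 1 UMI, is among the 13, and Cd84 and Spint1, with 1 each, and Adora3, with 2, are among the 17. The split is less resolved than these counts show. Without the shared barcode Sall1 and Adgrg1 left the 16, with log2 ratios to WT of -1.52 and -1.11. With Apoe under 4% as the limit they stood at -1.81 and -1.31, and P2ry12 left the 16 too, just past the 2-fold limit. Of 65 genes at least 4-fold higher in Apoe-high than in WT, 14 were near WT only, 16 near Apoe-high only and 28 near neither, and 7 were not placed, 5 of them with no UMI. The 14 include Cst7 and Scimp, which had only 1 UMI each in the set. In the other 58 Apoe-low cells 29 of the 54 were near Apoe-high only, 1 near WT only and 15 near neither, and 9 with no UMI were not placed. Of the 65, 57 were near Apoe-high only there and 8 near neither.

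**Figure D3:**
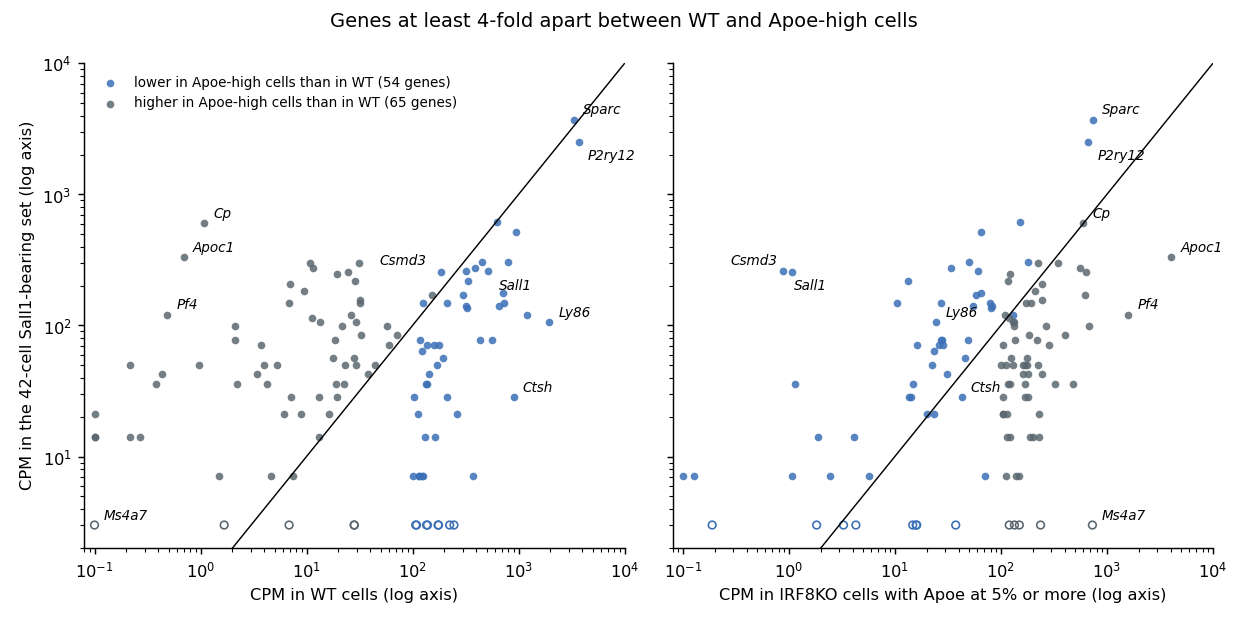
Each point is a gene at least 4-fold apart between WT and Apoe-high cells; the y axis is its CPM in the 42-cell Sall1-bearing set and the x axis its CPM in WT (left) or Apoe-high cells (right), all on log axes. Open circles are genes with 0 UMIs in the set, drawn at 3 CPM, and x values under 0.1 CPM are drawn at 0.1; points near the diagonal are equal in the 2 groups, as Sparc is with WT and Cp with Apoe-high.

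The cells were also placed 1 by 1 between the references. Each was thinned to 1000 UMIs and given the difference of its log-likelihood per UMI under the WT and the Apoe-high profile, over genes on no list and without Apoe, so that a value above 0 is nearer to WT. Of the 100 members 12 were above 0, an exact interval of 6.36% to 20.02%, and all 12 belong to the Sall1-bearing set, whose median was -0.034. The set was clustered on genes from this same pool. How the scores divide between the set and the other 58 is therefore a description and supports nothing. The other 58 had a median of -0.164 and none above 0 (exact upper bound 6.16%). Among cells not used for the profiles, 1646 of 1652 WT cells and 4 of 2249 Apoe-high cells were above 0, with medians of 0.157 and -0.159. Most of the set therefore lay between the references, and 10 members were within 0.02 of 0.

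**Figure D4:**
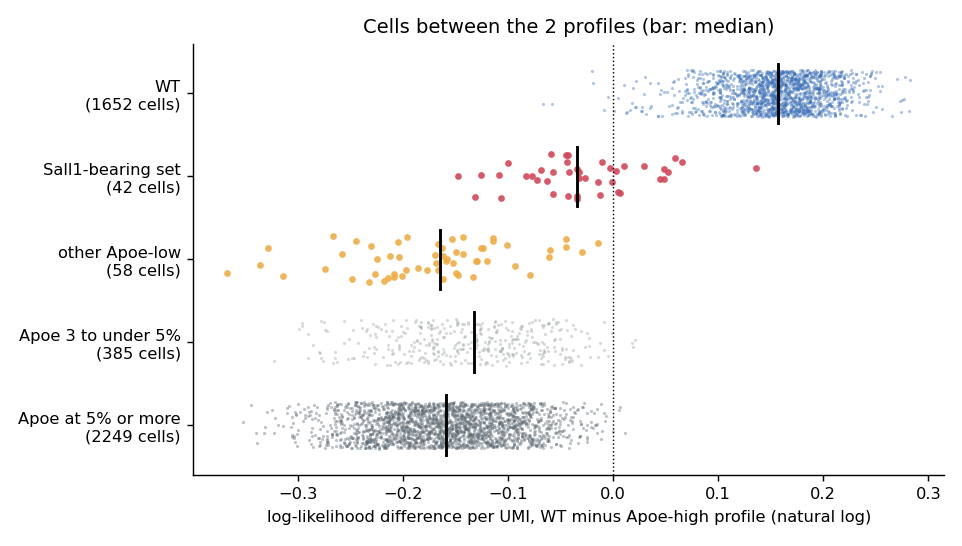
Each point is 1 cell; the x axis is the log-likelihood difference per UMI between the WT and Apoe-high profiles (natural log), and the bar is the group median. WT and Apoe-high show only cells not used for the profiles; the Sall1-bearing set, with a median of -0.034, lies between the groups.

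The 12 cells nearer to WT were also read for 6 genes chosen, after their values were seen, for being high in the library labelled IRF8KO against WT, so that their counts describe these cells and support nothing. With 1000 UMIs per cell, a UMI of Cp, Trim55, Cck, Apoc1, Ch25h or Acaca was found in 10 of the 12 (exact interval 51.6% to 97.9%), 71.4% of the set, 91.8% of Apoe-high cells, 0.938% of WT cells and 11.2% of the neutrophil-rich barcodes (5.74 to 19.2). Without thinning it was found in 11 of the 12, at a median of 3095.5 UMIs, and in 29.6% of the neutrophil-rich barcodes, at a median of 7057.5. Cp was then found in 8 of the 12, Acaca in 9, Trim55 and Cck each in 6 and Apoc1 in none. In a joint map of both libraries the median cell of the set had 7.5 Apoe-high cells, 4 cells of the set and 0 WT cells among its 15 nearest neighbours. In 5 cells of the set at least 5 of the 15 were WT. The member with the shared barcode had 1035 UMIs, 1.93% in Apoe and 2.32% in ribosomal protein genes, and its barcode held 7418 UMIs in the WT library.

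Read along Apoe rather than by cluster, microglia genes were found less often in members with more Apoe, a pattern chosen with the rule's own measure and given with no test. With 1000 UMIs per cell, P2ry12 was found in 88.9% of the 27 cells with Apoe under 0.5% (exact interval 70.8 to 97.6), in 40.9% of the 22 cells at 1 to 2% and in 54.8% of the 42 cells at 2 to 3%. It was found in 43.9% of Apoe-high cells and 94.9% of WT cells, and in 3.06% of the neutrophil-rich barcodes, a guide to what free RNA gives. Sall1 was found in 25.9% of the cells under 0.5%, in none of those at 1 to 2% or 2 to 3% and in 1189 of 3304 WT cells. Without thinning, P2ry12 had a UMI in 41 of the 42 cells of the set, at a median of 3248 UMIs, and in 10 of 98 neutrophil-rich barcodes, at a median of 7057.5 UMIs. Apoc1 went the other way, from 7.41% under 0.5% to 73.8% at 2 to 3%, 83.6% at 3 to 5% and 82.0% in Apoe-high cells. The median share of the surface and secreted list was 9.92%, 8.98%, 4.61%, 4.06%, 4.75% and 4.48% over the 6 ranges of Apoe from lowest to highest.

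**Figure D5:**
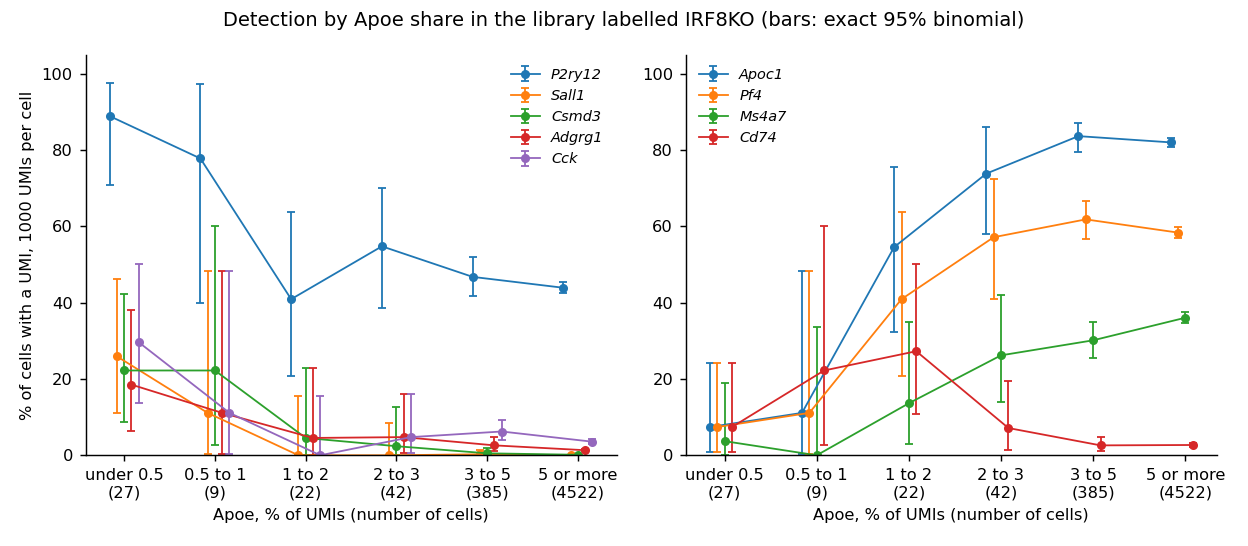
Points give the percent of cells with a UMI of each gene after thinning to 1000 UMIs per cell, by the share of UMIs in Apoe (x axis, percent, with the number of cells), and bars are exact 95% binomial intervals. P2ry12, Sall1, Csmd3, Adgrg1 and Cck (left) are most often found under 1% Apoe, and Apoc1, Pf4 and Ms4a7 (right) above 2%, while Cd74 peaks at 1 to 2%.

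The 100 Apoe-low cells as a whole mix these kinds. Against Apoe-high, of 8783 genes with at least 10 CPM, 388 (4.42%) were at least 2-fold higher and 466 (5.31%) at least 2-fold lower, and with Apoe left in the totals 517 and 335. Of 33 surface and secreted genes 7, P2ry12 and Cck among them, were higher and none lower, with a median of 0.32 (0.03 over all genes). P2ry12 read 1414 CPM, a log2 ratio of 1.07 (0.94 to 1.21), and Ms4a7 253 CPM, a ratio of -1.53 (-1.86 to -1.22). The lowest genes against Apoe-high include Pla2g7, a phospholipase that acts on platelet-activating factor, at 21.6 CPM against 237, and the chemokine Ccl12 at 24.6 against 140. Against WT, of 9035 genes 736 (8.15%) were at least 2-fold higher and 1029 (11.4%) at least 2-fold lower. Here 11 of 35 surface and secreted genes were lower and 2, Cck among them, higher, with a median of -0.77. Of 14 border macrophage genes 11 were higher and 1 lower, with a median of 4.82. Border genes near 0 in WT, as Ms4a7, reached 10 CPM only through the Apoe-low cells, so this count and median are a description. Trim55, Apoc1, Ms4a7 and Pf4 lead the genes above WT, and the lowest include Spint1, a protease inhibitor, with 1 UMI against 123 CPM in WT, and the adenosine receptor Adora3, with 2 UMIs against 164 CPM.

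Several of the largest differences of the 100 cells came from 10 cells rich in MHC class II, the molecules that present antigen to T cells. These 10, the members with most UMIs of H2-Aa, H2-Ab1, H2-Eb1 and Cd74, had 9 to 273 such UMIs each, the next member had 3, and together they held 99.2% of the members' UMIs of these genes. At least 10 such UMIs were found in 9 of 100 members, 19 of 4522 Apoe-high cells and 9 of 3304 WT cells. None of the 10 was in the Sall1-bearing set. They also held 86 of the 87 member UMIs of Ccr2, a chemokine receptor of monocytes, 632 of 774 of Lyz2, lysozyme, 46 of 50 of Ifitm3 and 19 of 20 of S100a6, and 87 of the 90 member UMIs of the 11 monocyte markers. Their median share of the surface and secreted list was 2.37% and Tmem119 read 118 CPM. Without them Cd74 in the Apoe-low cells turned from a log2 ratio to Apoe-high of 4.62 to -1.68, and Lyz2 from 1.72 to -0.52. The 10 were picked on Cd74 among other genes, so its fall was fixed by the choice and supports nothing. Only the Apoe-low group lost cells: Apoe-high kept its 19 cells with at least 10 such UMIs, so the negative values do not compare like groups.

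The remaining 48 members were near Apoe-high cells in the microglia and border macrophage lists, with a median Apoe share of 2.38%. Over all 3951 genes at 50 CPM or more 163 (4.13%) were at least 2-fold higher and 100 (2.53%) at least 2-fold lower than in Apoe-high, with a median of 0.07. Of their 29 surface and secreted genes at 50 CPM or more none was 2-fold higher or lower than in Apoe-high, with a median log2 ratio of -0.07, and the same held for 10 border macrophage genes, with a median of -0.37. Cell cycle genes were the exception, with 5 of 7 at least 2-fold higher, and rested on few cells: 15 UMIs of Mki67, a marker of dividing cells, lay in 4 of the 100 members, with 11 in 1 cell. The galectin gene Lgals3 had 37 member UMIs, 29 of them in 1 cell. Markers of most other cell types were at or near 0 in the members, but not those of the dendritic cell list or, in the 10 cells above, of monocytes. Of 13 neutrophil markers, 6 of them used by the rule, 9 were at 0 and no member had more than 1; of 10 neuron and 5 red cell markers all were at 0, and of 16 lymphocyte markers 14. Of 10 markers each, 9 were at 0 for blood vessel cells, 8 for astrocytes, 6 for oligodendrocytes and 5 for dendritic cells. The dendritic cell list had 508 member UMIs, of which Siglech held 418 and Bst2 82, and 5 members had at least 3 of its genes. Siglech, a lectin that microglia also express, read 1288 CPM in the members, 1051 in Apoe-high and 1802 in WT. No cell of the Sall1-bearing set had a UMI of any of the 11 monocyte markers. Their part in the results was not tested, and fewer cells of a type and less RNA per cell cannot be told apart in the sums.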

How the data were processed

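Droplet single-cell RNA-seq of sorted microglia was analysed from 1 WT library and 1 library labelled IRF8KO. The deposited matrices hold UMI counts per gene and barcode, made by the authors with Cell Ranger 3.1 on mm10, per the submitters' processing notes. The lowest barcode has 500 UMIs in WT and 501 in the other, so barcodes had been selected before deposit. The labels' protocol also names a full-length kit, which is no droplet method.

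Filters are as stated in the report; no doublet caller was run. Counts were summed over cells. Ratio intervals are exact conditional binomial, levels exact Poisson and shares Clopper-Pearson. For ratios, 0 counts in a group were replaced by 3 (21.3 CPM for the 42 cells, 9.24 CPM for the 100), and where that floor lies above the other group the log2 ratio was set to 0 and not called. Members were clustered with scanpy 1.11.5 and leidenalg 0.10.2 on 30 components of 2000 variable genes, 10 neighbours and resolution 0.5; other components, neighbours, resolutions, filters and scalings, with TMM from edgeR 4.0.16, were tried. Ratios and the cell score were tested on simulated counts. Positions are from GENCODE M21. Named genes are Apoe, Irf8, Ms4a7, the markers given for these cells, up to 6 per list by size of ratio plus members near 0, and the 12 highest and 12 lowest genes; others named were chosen after their values were seen. The cluster with the highest summed level of Sall1 was taken as the Sall1-bearing set, under every setting. The members, lists and clustering were chosen with earlier results of these data known.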

Additional observations from a re-analysis of the deposited data

How the results depend on the processing

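No paired analysis was possible because each group is 1 library, and no replicate could be left out. With Apoe under 2% or 4% as the limit, the share of Apoe-low cells was 1.16% or 4.15%, the cells nearer WT 20.7% or 5.77%, and the genes at least 2-fold from Apoe-high 617 higher and 814 lower or 212 and 169. At 4% the Sall1-bearing set had 92 of the cells, with all 42 of the reported ones. Without a minimum CPM, 1155 genes were higher than in Apoe-high and 1486 higher than in WT. At 50 CPM, a setting chosen after seeing the data, as were those of the clustering and the one without the MHC class II cells, 72 were higher and 48 lower than in Apoe-high, and 280 and 320 than in WT. The surface and secreted list's median against WT moved from -0.77 to -0.59 at Apoe under 2% and to -0.61 without the 10 MHC class II cells, and that of the border list from 4.82 to 3.91 without them.

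Most values that changed sign did so without those 10 cells. They were picked on H2-Aa, H2-Ab1, H2-Eb1 and Cd74 and left out of the Apoe-low group alone. The changes of these genes and of their list were thus fixed by the choice and support nothing. Against Apoe-high the MHC class II list's median became -1.43, H2-Eb1 -0.75, H2-Aa -2.70, Cd74 -1.68, Ccr2 -1.70, H2-Ab1 -1.43, Lyz2 -0.52, Ifitm3 -0.97 and H2-DMa -2.06; against WT the list's median became -1.67, Cd74 -0.34 and Ifitm3 -0.25. At Apoe under 4% Cxcl10 became 1.08 against Apoe-high and Ccl12 0.46 against WT; the cause was not tested in either case. Leaving Apoe in the totals moved the median of all genes against Apoe-high from 0.03 to 0.15. Of the remaining values of single genes, lists and medians 5637 stayed within their limits and 399 left them with no change of sign called. The limits were counting intervals for single genes and the median of the members' interval bounds for lists. For medians of all genes a fixed limit on the change was used. The Sall1-bearing set rests on 140909 UMIs without Apoe, so a gene under about 21.3 CPM could not be told from 0 there.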

Other observations

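In the WT library 3303 of 3304 kept cells had Apoe under 3% of UMIs. The remaining WT cell had 14.2% of its UMIs in Apoe.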
